A study of Hydra vulgaris with 2 samples.

Results

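The transcripts described here encode 3 proteins named after alcohol dehydrogenases and 1 sulfite oxidase, and were measured in RNA from extracellular vesicles (EVs) of the freshwater polyp *Hydra vulgaris*. EVs are small membrane-enclosed vesicles shed by cells. The 4 transcripts were taken by their identifiers from the 25314 targets listed in each library, of which 21982 are mRNAs. They were chosen for their enzyme names and for levels seen in these libraries, so the levels are a description and no test was made on them. The transcripts are LOC100205733 (XM_002163228.3, described by a zinc-binding alcohol dehydrogenase domain and called ZADH2-like here), LOC100208817 (XM_012708387.1, alcohol dehydrogenase class-3-like), LOC100203380 (XM_002170612.3, alcohol dehydrogenase) and LOC100197383 (XM_002159149.3, sulfite oxidase, mitochondrial). The names are those of the gene list of the study and could not be checked against the sequences here.

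EVs of the strain Zurich were collected by centrifugation from the medium of whole polyps that had been starved, and were treated with proteinase K and then RNase A before the RNA was extracted. The data are 2 libraries of this 1 condition, EV1 (the one with the smaller number in its label) and EV2. The study describes them as replicates, each from many pooled polyps, and RNA of whole polyps was not analysed here. A level therefore describes EV RNA and not an enrichment over the animal, and more vesicles carrying a transcript cannot be told apart from more copies per vesicle.

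Alcohol dehydrogenases oxidise alcohols to aldehydes or run the reverse reaction, with NAD or NADP as the electron carrier, and many of them belong to the zinc-binding medium-chain dehydrogenases. The class-3 enzyme is known for the oxidation of the adduct of formaldehyde with glutathione. ZADH2 is known in mammals as a prostaglandin reductase, and the gene list of the study gives the *Hydra* gene that activity, zinc binding and the mitochondrion. Sulfite oxidase carries a molybdenum cofactor and a cytochrome b5-like heme domain. In the mitochondria of animals it oxidises sulfite to sulfate, the last step in the breakdown of sulfur-containing amino acids, and passes the electrons to cytochrome c.

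The estimated counts added up to 5943550.5 in EV1 and 3943873.0 in EV2, but the 5 most abundant targets took 97.0% and 98.7% of them. The mRNA targets outside these 5 held 142638 counts in EV1 and 34881 in EV2. Levels are given as TPM, a unit in which counts are divided by the effective length of a target and every library is scaled to an equal total. The abundant targets therefore set the scale of the TPM of all others. Brackets hold 95% exact Poisson intervals of the count, rounded to a whole number and converted to TPM. These cover only counting error (several reads can come from 1 molecule), and with 2 libraries of 1 condition no difference could be tested against replicate spread.

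The ZADH2-like transcript was the most abundant of the 4. It had 3728 estimated counts in EV1 and 871 in EV2, or 396 TPM (383 to 409) and 147 TPM (137 to 157). Sulfite oxidase was next with 1273 and 949 estimated counts, or 93.1 TPM (88.1 to 98.4) in EV1 and 110 TPM (103 to 118) in EV2. The alcohol dehydrogenase class-3-like transcript had 7 counts in EV1 and 4 in EV2, which correspond to 1.61 TPM (0.646 to 3.31) and 1.46 TPM (0.398 to 3.74). The alcohol dehydrogenase LOC100203380 had 15.6 counts and 2.43 TPM (1.43 to 4.05) in EV1, and no count in EV2. With 0 counts there, the interval reaches 0.915 TPM, and the floor of 3 counts, used here as a reference level, corresponds to 0.744 TPM.

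**Figure D1:**
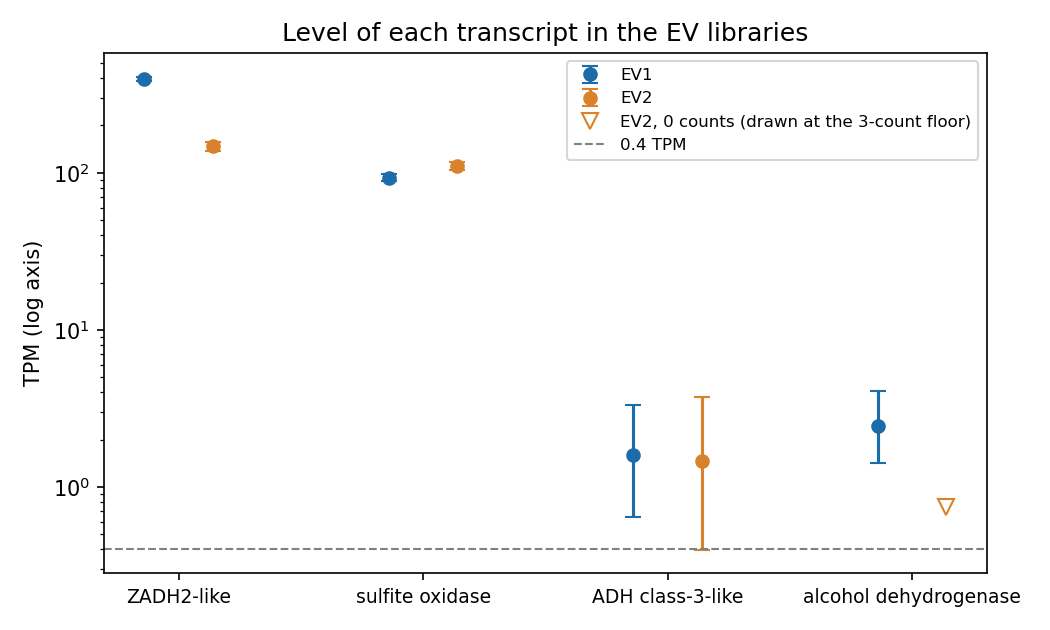
TPM (log axis) of the 4 transcripts in EV1 (blue) and EV2 (orange), with 95% Poisson intervals of the counts; the open triangle stands for 0 counts and is drawn at the floor of 3 counts. The ZADH2-like and sulfite oxidase transcripts lie between 93.1 and 396 TPM and the other 2 at 2.43 TPM or less.

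ZADH2-like and sulfite oxidase were separated from both low transcripts in EV1. The smallest of these ratios was that of sulfite oxidase over LOC100203380, at 38.3 (counting interval 22.9 to 65.5). ZADH2-like was 247-fold above the class-3-like transcript in EV1 (120 to 614) and 101-fold above it in EV2 (39.1 to 370). Sulfite oxidase was 58.0-fold (28.1 to 145) and 75.5-fold (29.4 to 278) above it. The 2 low transcripts were not separated from each other in EV1, where the ratio of LOC100203380 to the class-3-like transcript was 1.52 with an interval of 0.605 to 4.47. In EV2 the class-3-like transcript had 4 counts and LOC100203380 none, and no ratio was computed between them. Their counting intervals in TPM overlapped there (0.398 to 3.74 and 0 to 0.915).

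The threshold of detection in the study was 0.4 TPM in at least 1 library. All 4 transcripts reached it in EV1, where 24.4% of the mRNA targets did. In EV2 3 of them reached it, where 4.61% of the mRNA targets did, and the same 3 reached it in both, against 3.74% of the mRNA targets. At least 1 library was enough for all 4, and for 25.3% of the mRNA targets. The members were chosen from genes already seen in these libraries, so these counts carry no evidence on their own. For the class-3-like transcript, whose target is only 718 bases long, the threshold corresponds to 1.74 counts in EV1 and 1.10 in EV2. For sulfite oxidase, with 2048 bases, it corresponds to 5.47 and 3.44 counts.

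Among the mRNA targets ZADH2-like ranked 6 in EV1 and 11 in EV2, and 8 by mean TPM (271 ± 176 TPM, SD, n = 2). Its neighbours in the order of means, LOC105848752 (325 ± 129 TPM) and LOC100204308 (231 ± 44.8 TPM), differed from it by less than the spread of its own values. Within EV1 it stood apart in counting error, between the 684 TPM (656 to 712) of the glia maturation factor beta-like LOC100212984 and the 288 TPM (264 to 313) of LOC105849878. Within EV2 it lay between LOC100213788 at 188 TPM (171 to 206) and LOC100201317 at 128 TPM (106 to 153), and its interval overlapped that of the lower neighbour.

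Sulfite oxidase ranked 17 in EV1, 13 in EV2 and 14 by mean TPM (102 ± 12.1 TPM, SD, n = 2). Its neighbours by mean were LOC100201317 (110 ± 26.0 TPM), described as a putative uncharacterized protein ART2, and the glutamine synthetase-like LOC100207674 (78.4 ± 22.2 TPM). LOC100201317 differed from it by less than the spread of either target. In EV1, 3 other mRNA targets lay within its counting interval. The low transcripts could not be ordered in this way: the interval of the class-3-like transcript held 2904 other mRNA targets in EV1 and 894 in EV2, and that of LOC100203380 held 973 in EV1.

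The 2 abundant transcripts did not keep the same distance in the 2 libraries. ZADH2-like was 4.25-fold above sulfite oxidase in TPM in EV1 (3.99 to 4.53), and 1.33-fold above it in EV2 (1.21 to 1.46). Counts that are not divided by length gave another order in EV2, where ZADH2-like had 0.918 times the counts of sulfite oxidase on a target of 1441 bases against 2048. Their order by TPM in EV2 thus rests on the difference in length.

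Between the libraries, ZADH2-like was 2.69-fold higher in EV1 (2.50 to 2.90), a log2 ratio of 1.43 on TPM + 0.1. The ratio for sulfite oxidase was 0.844 (0.776 to 0.920), that is -0.24 on the log2 scale, so its TPM was lower in EV1. For the class-3-like transcript the ratio was 1.10 with an interval of 0.279 to 5.12, so no direction could be read. The level of LOC100203380 in EV1 was 3.27 times the one that 3 counts would give in EV2, where it had none. This is not a lower bound, as the lower limit of the counting interval of the ratio between the libraries was 2.43. Both values take all of its 15.6 counts in EV1 as its own.

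These ratios have to be read against the other mRNAs. Across the 171 mRNA targets that had 10 or more counts in each library, the median log2 ratio of EV1 over EV2 was 2.0. Of these targets, 72.5% were more than 2-fold higher in EV1, as was ZADH2-like, and 18.1% were lower in EV1, as was sulfite oxidase, with 1.75% lower there by more than 2-fold. Both transcripts lay under the median. Relative to it, ZADH2-like was at -0.57 on the log2 scale, with 59 of the 171 targets at or under its value, and sulfite oxidase at -2.24, with 28 at or under its value. The direction for ZADH2-like thus depended on the scale. ZADH2-like was higher in EV1 in deposited TPM and lower there relative to the median of these 171 targets, at -0.57. Sulfite oxidase was lower in EV1 on both scales. The 171 targets leave out those with fewer than 10 counts in EV2, also where these were high in EV1. Their median and shares are therefore not those of all mRNA targets.

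**Figure D2:**
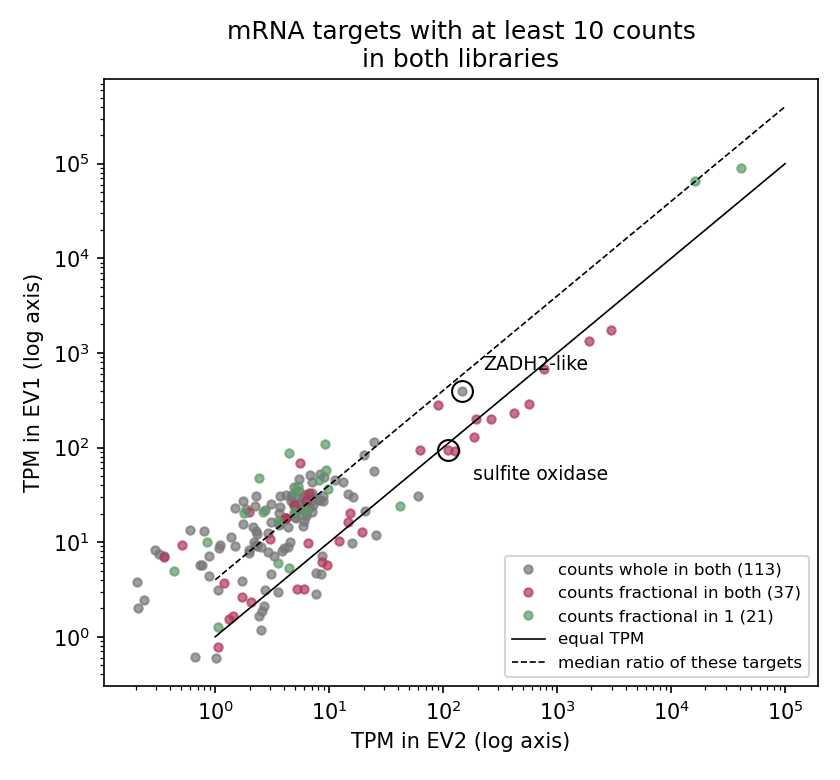
TPM in EV1 against TPM in EV2 (log axes) for the 171 mRNA targets with at least 10 counts in both libraries, coloured by whether their estimated counts are whole; the solid line marks equal TPM and the dashed line the median log2 ratio of 2.0. ZADH2-like lies between the lines and sulfite oxidase just under the line of equal TPM.

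The share of the mRNA counts, in which the most abundant mRNAs weigh more than in the median, was a further scale. LOC100208569 alone held 11819.4 of the 142638 mRNA counts outside the 5 most abundant targets in EV1, and 12586.1 of the 34881 in EV2. The shares depend on it, and shares without it were not computed. Of the mRNA counts outside the 5 most abundant targets, ZADH2-like took 2.61% in EV1 and 2.50% in EV2. The ratio of these shares was 1.05, with a counting interval of 0.972 to 1.13 that includes equal shares. ZADH2-like was thus not lower in EV1 on this scale, while it was lower relative to the median of the 171 targets. Sulfite oxidase took 0.892% in EV1 and 2.72% in EV2, a ratio of 0.328 (0.301 to 0.357). Sulfite oxidase was thus lower in EV1 on each of the 3 scales, and ZADH2-like was higher, lower or not separated depending on the scale. The 3 scales use the same counts and differ in how the libraries are scaled, so they are not independent of each other. The class-3-like transcript took 0.00491% and 0.0115% of these counts.

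**Figure D3:**
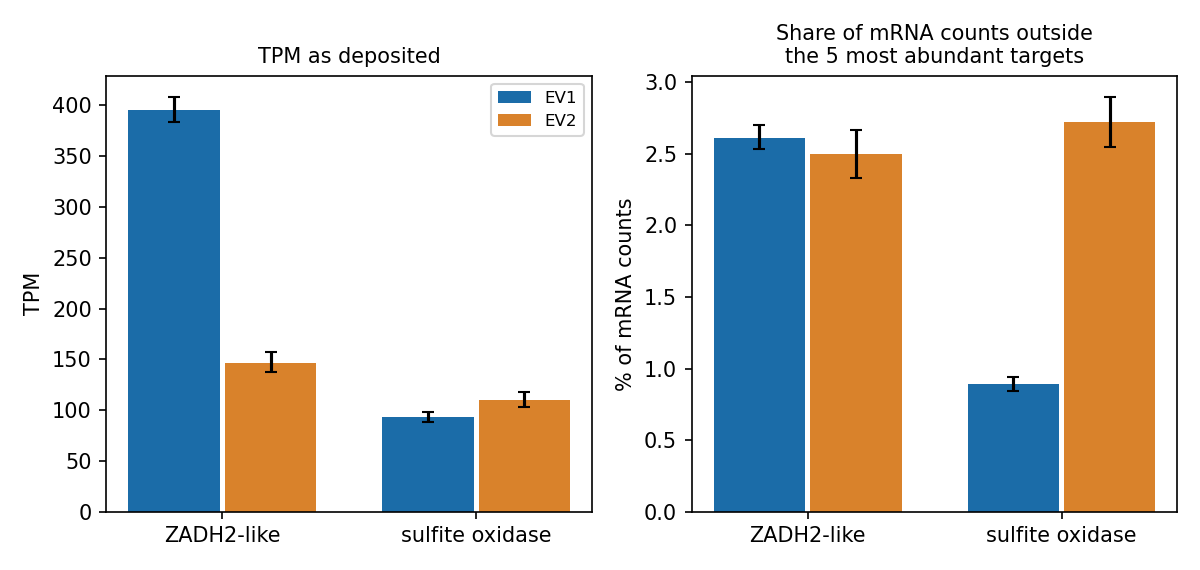
Left, TPM of ZADH2-like and sulfite oxidase in EV1 (blue) and EV2 (orange); right, their share of the mRNA counts outside the 5 most abundant targets, in percent. Bars start at 0 and error bars are 95% Poisson intervals: ZADH2-like differs between the libraries in TPM (396 and 147) and hardly in share (2.61% and 2.50%), and sulfite oxidase differs mainly in share (0.892% and 2.72%).

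Estimated counts also differed in kind. The method splits reads that fit several targets, so that a count with decimals shows that reads were shared. ZADH2-like had whole counts in both libraries, as did the class-3-like transcript. Sulfite oxidase had fractional counts in both (1272.63 and 949.074), and LOC100203380 in EV1 (15.6026). Fractional counts were found in 17.8% of the mRNA targets with any count in EV1 and in 15.2% of those in EV2. Whole counts do not exclude shared reads that were all given to 1 target.

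Of the 14 mRNA targets at or above the mean TPM of sulfite oxidase, 13 had fractional counts in at least 1 library. The exception was ZADH2-like, which by mean TPM was the first mRNA target with whole counts in both libraries. The next with whole counts was the actin LOC100202036 at 114 and 24.9 TPM in EV1 and EV2. Of the same 14 targets, 9 were lower in EV1, and each of the 9 had fractional counts, sulfite oxidase included. The most abundant target of all, the non-coding LOC105849895, had a log2 ratio of -0.49 and LOC105850674, which followed it, one of 0.28.

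Over the 171 targets the ratio between the libraries varied with the kind of count. The 37 targets with fractional counts in both libraries had a median log2 ratio of 0.18 (quartiles -0.49 and 1.79), and the 113 with whole counts in both one of 2.06 (quartiles 1.43 and 2.71). The 21 targets with fractional counts in 1 library only had the highest median, 2.48 (quartiles 1.81 and 3.25), so of these 3 kinds the low median was that of targets with fractional counts in both. Sulfite oxidase lay within the quartiles of the targets with fractional counts, and ZADH2-like at the lower quartile of those with whole counts. The split was not complete, as 14 of the 31 targets that were lower in EV1 had whole counts in both. Which targets shared reads with sulfite oxidase is not listed in the deposited tables, and the part of shared reads in its ratio was not tested.

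**Figure D4:**
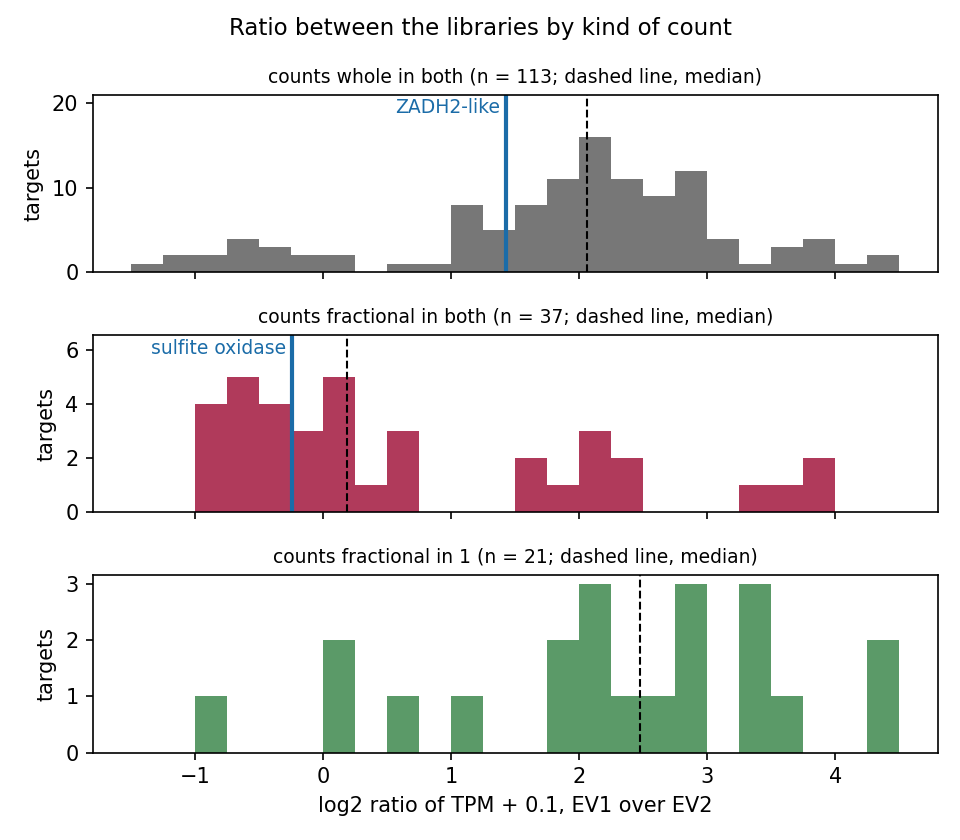
Number of mRNA targets by log2 ratio of TPM + 0.1, EV1 over EV2, for targets with whole counts in both libraries (top, 113), fractional counts in both (middle, 37) and fractional counts in 1 (bottom, 21). Dashed lines are medians, and blue lines mark ZADH2-like at 1.43 and sulfite oxidase at -0.24.

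For the alcohol dehydrogenase LOC100203380, the other targets were searched for counts that add to a whole number with its own in EV1, a search made after its value was seen. Of 2510 other targets with fractional counts, 2 did so within the rounding of the files. How many would do so by coincidence was not estimated. The aldose reductase-like LOC100197804 had 10.3974 counts, and the sum with 15.6026 is 26. The other was LOC100208569, whose 11819.4 counts are given to 1 decimal only, which makes such a sum easy to reach. Aldose reductases are aldo-keto reductases. Some enzymes called alcohol dehydrogenase belong to that family and not to the zinc-binding one, and the description of LOC100203380 does not say which family it is from. Both LOC100203380 and LOC100197804 had 0 counts in EV2. If reads were shared between them, the 15.6 counts of LOC100203380 are a share assigned by the model and its level is uncertain. No target added to a whole number with sulfite oxidase in both libraries.

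The 0 of LOC100203380 in EV2 was common for its depth. At the TPM of EV1 it would have had 9.81 counts in EV2, and 2.43 counts if it had differed by the median ratio of the 171 targets. Of 759 mRNA targets with 12 to 20 counts in EV1, 369 (48.6%) had 0 counts in EV2. The 4 counts of the class-3-like transcript were the less common case: of 1214 mRNA targets with 6 to 8 counts in EV1, 21 (1.73%) had at least 4 in EV2 and 842 (69.4%) had none. The window and the cutoff were set around its own counts, so this share is a description and no test. The counting interval of its log2 ratio, -1.84 to 2.36, includes the median of 2.0.

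The mRNA targets with the most similar pair of levels were found by distance on log2(TPM + 0.1) over the 2 libraries. For ZADH2-like the nearest were ferritin, the iron storage protein (284 and 90.1 TPM, distance 0.85), the A-kinase anchor protein 17A-like LOC100198813 (201 and 194 TPM, 1.06) and LOC100204308 (199 and 262 TPM, 1.30), and none lay within 0.5. Sulfite oxidase had 1 target within 0.5, LOC100201317 (91.2 and 128 TPM, distance 0.22), followed by LOC100207674 (94.0 and 62.7 TPM, 0.81) and LOC100213788 (130 and 188 TPM, 0.91), described as a homolog of the sorting protein VPS41. The class-3-like transcript had 29 targets within 0.5, led by the rab GDP dissociation inhibitor LOC100201751 (1.66 and 1.43 TPM), the exocyst component LOC100203133 (1.55 and 1.33 TPM) and the NPC2 homolog LOC100207902 (1.85 and 1.47 TPM). With 2 libraries such likeness is only a closeness of 2 values.

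Other targets of alcohol, aldehyde and sulfur metabolism, and of the cofactor and electron acceptors of sulfite oxidase, were selected by words of their descriptions. The part of the gene list given here was used, which starts with the most abundant genes, so that lower ones can be missing and detection is no finding. Besides the 4 transcripts, 6 such targets were found, with levels between 2.11 and 3.64 TPM in EV1. None of the 6 came from the words for alcohol dehydrogenases and their relatives, so no further alcohol dehydrogenase was found. In EV2, 2 of the 6 reached 0.4 TPM, as 4.61% of all mRNA targets did, and 3 had no count. The 2 were an aldehyde dehydrogenase and cytochrome c, which is an electron carrier and not an enzyme of these pathways. The words for sulfur cover sulfite, sulfide and sulfate. A wider choice would hold higher targets, such as the betaine--homocysteine S-methyltransferase LOC100206048 of methionine metabolism with 30.8 TPM in EV1 and 2.28 TPM in EV2, which was named after its values were seen.

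In aldehyde and carbonyl metabolism, the mitochondrial aldehyde dehydrogenase LOC100201630, which oxidises aldehydes to acids, had 26 counts in EV1 and 5 in EV2, or 2.42 and 0.739 TPM. The aldose reductase-like LOC100197804 reached 3.64 TPM on 10.4 counts in EV1. The methylmalonate-semialdehyde dehydrogenase LOC101235550, an enzyme of valine breakdown, reached 3.52 TPM on 10 counts there. Both had none in EV2. The carbonyl reductase LOC100200320 had 13.6 counts and 1 count, with 2.11 and 0.246 TPM.

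Around sulfite oxidase, cytochrome c (LOC100209441), which accepts its electrons, had 12 counts in EV1 and 4 in EV2, or 3.11 and 1.65 TPM. The persulfide dioxygenase ETHE1-like LOC100205916, which forms sulfite in the mitochondrial oxidation of sulfide, had 9 counts and 2.34 TPM in EV1 and no count in EV2. Sulfite oxidase was thus above both by 29.9-fold or more in EV1. No interval was computed for these ratios, which rest on 12 and 9 counts. They take all counts of sulfite oxidase as its own, although these are fractional. No target of the molybdenum cofactor pathway was described in the part of the list given. The words for alcohol dehydrogenases picked, apart from the transcripts described here, only 5 subunits of the NADH-ubiquinone oxidoreductase of the respiratory chain, which is neither an alcohol dehydrogenase nor an enzyme of sulfur metabolism and was left out of these counts.

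**Figure D5:**
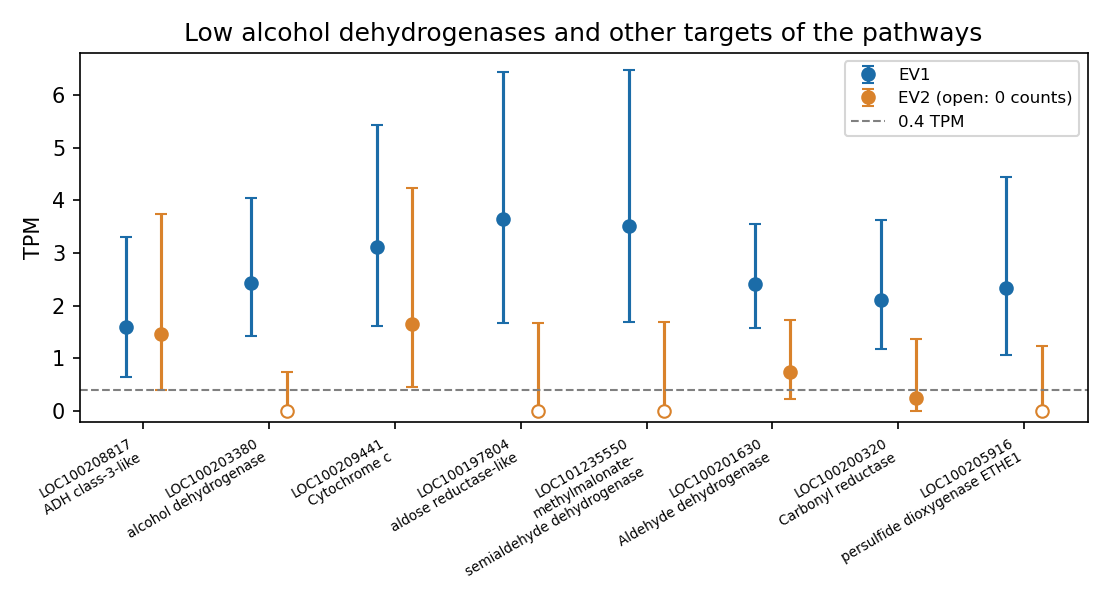
TPM of the 2 low transcripts named as alcohol dehydrogenases and of the 6 other targets found by the word lists, cytochrome c included, in EV1 (blue) and EV2 (orange), with 95% Poisson intervals; open points have 0 counts, with a bar up to the floor of 3 counts. All 8 are above 0.4 TPM (dashed) in EV1, and 3 of them in EV2.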

How the data were processed

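RNA of EVs was sequenced from both ends in 2 libraries made with the Ovation SoLo system. The authors trimmed the reads with TrimGalore! and quantified them with kallisto, whose version is not given in the sources used here, on the transcripts of the assembly Hydra_RP_1.0. The deposited estimated counts are not normalized. The deposited TPM are divided by effective length and scaled so that every library has an equal total, so they move with the most abundant targets. Depth was 5943550.5 and 3943873.0 estimated counts in EV1 and EV2.

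Levels, ranks and ratios were computed with Python 3.11.15, pandas 2.3.3 and SciPy 1.17.1, with a pseudocount of 0.1 TPM for log2 values. Intervals (95%) are exact: Poisson for counts and Clopper-Pearson for ratios of counts rounded to whole numbers. A count was called whole if it differed from a whole number by at most 1e-09, in files given to 6 digits. No differential test was made, as there was 1 condition. The scripts were tested on simulated data.

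Descriptions came from the gene list of the study, of which 1264 genes were given; 1117 matched a single target by their pair of TPM values. The 4 gene symbols are also in the annotation of the assembly HydraT2T_AEP, used for names only. Named targets are the 4 transcripts, the targets of 4 word lists on alcohol, aldehyde and sulfur metabolism and on cofactors (up to 5 of each), and the 3 nearest targets of each transcript with 3 or more counts in both libraries. Neighbours in rank, the most abundant targets, the next target with whole counts and the target of the summed counts were named after their values were seen. The transcripts and lists were chosen with earlier results of these data known. Alternatives were other scalings, lengths, pseudocounts, thresholds and filters, and leaving out each library. Sequences are not used here.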

Additional observations from a re-analysis of the deposited data

How the results depend on the processing

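Of 65 recomputed values, 46 were counted as unchanged, 15 as moved and 4 as reversed in sign. Some of the 46 could not come out otherwise. The mean TPM with 1 library left out always lies within the SD of the 2 libraries. The ratio at 3 or more counts in both libraries is the same ratio. Rescaling TPM without the 5 most abundant targets and lsu-rRNA raised the mean TPM of ZADH2-like to 9832, of sulfite oxidase to 3944, of the class-3-like transcript to 58.5 and of LOC100203380 to 41.0. Rescaling over mRNA targets other than those 5 gave 18238, 8114, 118 and 66.5, since the scale is set by the targets left out. The first rescaling moved the log2 ratio of EV1 over EV2 to 1.08 for ZADH2-like and to -0.60 for sulfite oxidase, and turned it to -0.22 for the class-3-like transcript. Centring on the median of the 171 targets turned it to -0.57 for ZADH2-like and -1.87 for the class-3-like transcript. The log2 ratio of sulfite oxidase moved to -2.24. Counts not divided by length gave log2 differences of ZADH2-like over sulfite oxidase of 1.55 in EV1 and -0.12 in EV2, against 2.09 and 0.41 in TPM. With 1 library left out in turn, the rank among mRNA targets ranged from 13 to 17 for sulfite oxidase. It ranged from 267 to 1239 for the class-3-like transcript and from 768 to 3236 for LOC100203380. The 3236 is no true rank, as LOC100203380 had 0 counts in EV2 and tied there with every mRNA target without counts. The number of pathway targets at 0.4 TPM ranged from 2 to 6 (2 without EV1). The number of the 4 transcripts at the threshold in both libraries was 3 at 0.2 and 1 TPM, with at least 3 counts and after rescaling. The low transcripts rest on under 20 counts each in EV1 and under 5 in EV2, and for LOC100203380 those in EV1 may be shared. No paired analysis was possible because there is 1 group of 2 libraries.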

Other observations

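Among the mRNA targets with whole counts in both libraries that were lower in EV1, the sulfatase-modifying factor 1-like LOC100198082 had the highest mean TPM. It had 276 counts in EV1 and 344 in EV2, or 30.4 and 60.2 TPM, a log2 ratio of -0.98. In animals this factor activates sulfatases by oxidising a cysteine in them. It was named after its values were seen, and a link with sulfite oxidase was not tested. The methyltransferase LOC100206048 of methionine metabolism was higher in EV1, with a log2 ratio of 3.70. This was the common direction, as 72.5% of the 171 targets were more than 2-fold higher there. The 5 NADH-ubiquinone oxidoreductase subunits set apart above had between 11 and 43 counts in EV1 and at most 1 in EV2.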
